A study of Mus musculus with 6 samples.

Results

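Histone H3 acetylated at lysine 27 (H3K27ac), which marks promoters and enhancers in use, was followed at 9 genes of the transforming growth factor beta (TGF-beta) pathway in hematopoietic stem cells (HSCs) that lacked Ppp2ca. The genes were the ligand Tgfb1, the receptors Tgfbr1 and Tgfbr2, the signal transducers Smad2, Smad3 and Smad4, the inhibitory Smad7, and the corepressors Ski and Skil. They were chosen by name and made up 9 of the 21883 protein-coding genes of the RefSeq table for GRCm38/mm10. Every peak that overlapped the span of a gene, or the 10 kb on either side of it, was taken from each library's list. Of 50453, 34016 and 35629 listed peaks in knockout replicates 1, 2 and 3, the windows of the 9 genes held 54, 49 and 54. Of 22066, 29945 and 21917 in wild-type replicates 1, 2 and 3, they held 36, 37 and 28.

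TGF-beta binds the type II receptor, which recruits and phosphorylates the type I receptor. The type I receptor phosphorylates Smad2 and Smad3, which enter the nucleus with Smad4 and act on target genes, while Smad7 blocks the receptor and Ski and Skil repress transcription at SMAD-bound sites. In bone marrow the pathway is known for holding HSCs in quiescence, and the phosphatase PP2A, whose alpha catalytic subunit Ppp2ca encodes, is known to bind the type I receptor through its regulatory subunit Ppp2r2a.

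The mark was mapped by CUT&RUN, which uses an antibody to tether micrococcal nuclease to chromatin and sequences the fragments it frees, on 100000 cells per the series text. The study asked which H3K27ac sites Ppp2ca affects, and set 3 libraries from Ppp2ca-deficient mice (knockout) against 3 from mice wild type for Ppp2ca. The part of the gene removed, any Cre driver, the strain and the ages were not given in the sources used here, and neither group was labelled as treated. Each library was taken as 1 mouse because the series text names 3 mice per group, but no label carries an animal number, so p-values measure the spread between these libraries, which may in part be technical.

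The deposited lists differed in length across all genes, and every value at the 9 genes has to be read beside that. Listed sequence came to 22.72, 14.54 and 19.56 Mb in the knockout libraries against 7.278, 9.595 and 7.245 Mb in the wild-type libraries, a ratio of means of 2.36. The median summit rested on 6, 6 and 9 fragments in the knockout libraries and on 5 in each wild-type library. The genome background, a proxy for usable depth solved from the fold and p-value of each peak, was 0.465 to 0.827 fragments per 200 bp in the knockout against 0.498 to 0.584 in the wild type. The part that depth or peak calling had in the longer knockout lists was not tested. Ppp2ca carried a gene-end peak in all 6 libraries, 1566 to 1681 bp wide in the knockout against 786 to 1232 bp wide in the wild type, which does not check the genotype because the deleted part is not known. Of 15 HSC and progenitor markers, 15 had a peak in their window, but at a gene end 5, 3 and 3 were marked in the knockout libraries and 4, 3 and 5 in the wild-type libraries. Tal1 and Runx1 were marked in all 6, while Slamf1, Ly6a, Cd34, Hlf, Mecom, Gata2 and Erg had no gene-end peak in any. Markers of other cells were marked as well: 4, 3 and 4 of 5 erythroid genes in the knockout against 2 in each wild-type library, and 4, 1 and 4 of 5 myeloid genes in the knockout against 2 in each wild-type library. Of 5 lymphoid genes, 2, 0 and 0 were marked in the knockout against 0, 0 and 2 in the wild type. Of 4 megakaryocyte genes, 2, 1 and 2 were marked in the knockout against 3, 2 and 1 in the wild type. Of 5 endothelial and stromal genes, 2 were marked in each knockout library and 1 in each wild-type library. Hbb-b1, Cd3e, Gp1bb, Col1a1 and Cxcl12 had no peak at all. The part of other cells in the values at the TGF-beta genes was not tested, and in bulk cells fewer cells of a type and less mark per cell cannot be told apart.

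The bases just before the transcription start are printed for the ligand, the receptors and Smad3. The knockout peaks at these genes reached into or stopped short of these bases. RefSeq promoters (GRCm38.p6) were matched for 5 of the 9 genes, namely these 4 and Ski. Each line gives the 250 bases that precede the start, 5′ to 3′ on the gene's own strand. Capitals mark the GC box, GGGCGG or CCGCCC on the other strand, and CAGAC, or GTCTG on the other strand, a pentamer that holds the CAGA core of the SMAD-binding element. No match overlapped another.
Tgfb1 (chr7:25686752-25687001, plus strand): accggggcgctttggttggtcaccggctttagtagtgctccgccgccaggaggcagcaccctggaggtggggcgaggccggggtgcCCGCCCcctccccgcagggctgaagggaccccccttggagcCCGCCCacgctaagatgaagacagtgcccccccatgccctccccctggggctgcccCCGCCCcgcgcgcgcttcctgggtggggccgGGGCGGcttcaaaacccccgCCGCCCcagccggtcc
Tgfbr1 (chr4:47352972-47353221, plus strand): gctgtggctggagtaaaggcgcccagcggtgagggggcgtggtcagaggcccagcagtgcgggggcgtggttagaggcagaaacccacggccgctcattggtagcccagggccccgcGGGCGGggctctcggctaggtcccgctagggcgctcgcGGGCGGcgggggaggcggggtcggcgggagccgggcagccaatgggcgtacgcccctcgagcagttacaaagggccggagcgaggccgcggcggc
Tgfbr2 (chr9:116175364-116175613, minus strand): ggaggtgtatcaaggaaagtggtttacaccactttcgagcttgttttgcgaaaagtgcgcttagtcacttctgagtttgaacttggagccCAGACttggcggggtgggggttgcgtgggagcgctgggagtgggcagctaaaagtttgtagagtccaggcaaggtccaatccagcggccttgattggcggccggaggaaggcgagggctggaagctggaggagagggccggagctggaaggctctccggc
Smad3 (chr9:63757995-63758244, minus strand): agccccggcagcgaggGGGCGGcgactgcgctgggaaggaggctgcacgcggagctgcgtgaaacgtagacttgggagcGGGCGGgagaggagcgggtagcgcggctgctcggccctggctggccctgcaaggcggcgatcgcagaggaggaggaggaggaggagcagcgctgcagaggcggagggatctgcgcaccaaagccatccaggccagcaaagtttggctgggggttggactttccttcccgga

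The Tgfb1 promoter held 5 GC boxes, those of Tgfbr1 and Smad3 held 2 each, and that of Tgfbr2 held none but had 1 CAGAC. Of 32851 promoter entries of the same length, 32.7% held a GC box and 42.2% a CAGAC. The G and C content was 75.2% at Tgfb1, 74.8% at Tgfbr1, 58.4% at Tgfbr2 and 69.2% at Smad3, against a median of 52.4% over all entries. Peaks covered all 250 bases at Tgfbr1 in knockout replicates 1 and 3, all 250 at Tgfbr2 in knockout replicates 2 and 3, and 234 at Smad3 in knockout replicate 3. No other library had a peak on these bases at the 3 genes, and no library had one at Tgfb1. The Ski promoter, which is not printed, held 5 GC boxes, no CAGAC and 87.6% G and C, and no library had a peak on it. The letters describe the window and name no bound factor.

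Sequence under peaks (covered bp) was the level compared at each gene. The knockout mean was higher at all 9 genes, beside 85.0% of the 17006 genes with a peak. The median factor was 2.1, against 2.36 over the 15128 genes with a wild-type peak. Per Mb of sequence that each library listed (bp per listed Mb), the knockout mean was lower at 6 of the 9 (Tgfb1, Tgfbr2, Smad4, Smad7, Ski and Skil). It was higher at the other 3, beside 55.6% of the 17006 genes. In covered bp, 5 of the 9 genes (Tgfb1, Tgfbr2, Smad2, Smad3 and Skil) were higher in every knockout library than in every wild-type library, beside 53.7% of the 17006 genes with a peak, and 3 of these 5 (Tgfb1, Tgfbr2 and Skil) turned to lower knockout means when scaled. The 5 became 3 with every list cut to 21917 peaks and 2 with no flank. They became 8 with a flank of 50 kb or without knockout replicate 2. The share of all genes under these settings is not given here. None was lower in every knockout library, beside 0.476% of these genes. Per listed Mb, 0 of the 9 were higher in every knockout library (13.2% of these genes) and 1, Ski, was lower in every one (5.48% of these genes). The two-sided exact permutation test over 3 and 3 libraries cannot give a p below 0.1, so no gene could pass 0.05, and the smallest adjusted p over the 17006 genes was 0.184 (Benjamini-Hochberg). The 9 windows together held 27639, 18660 and 26291 covered bp in the knockout libraries against 10744, 12054 and 11282 in the wild-type libraries. Per listed Mb that was 1281 ± 63.5 in the knockout against 1430 ± 156 in the wild type (SD, n = 3 each), and the libraries overlapped.

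**Figure D1:**
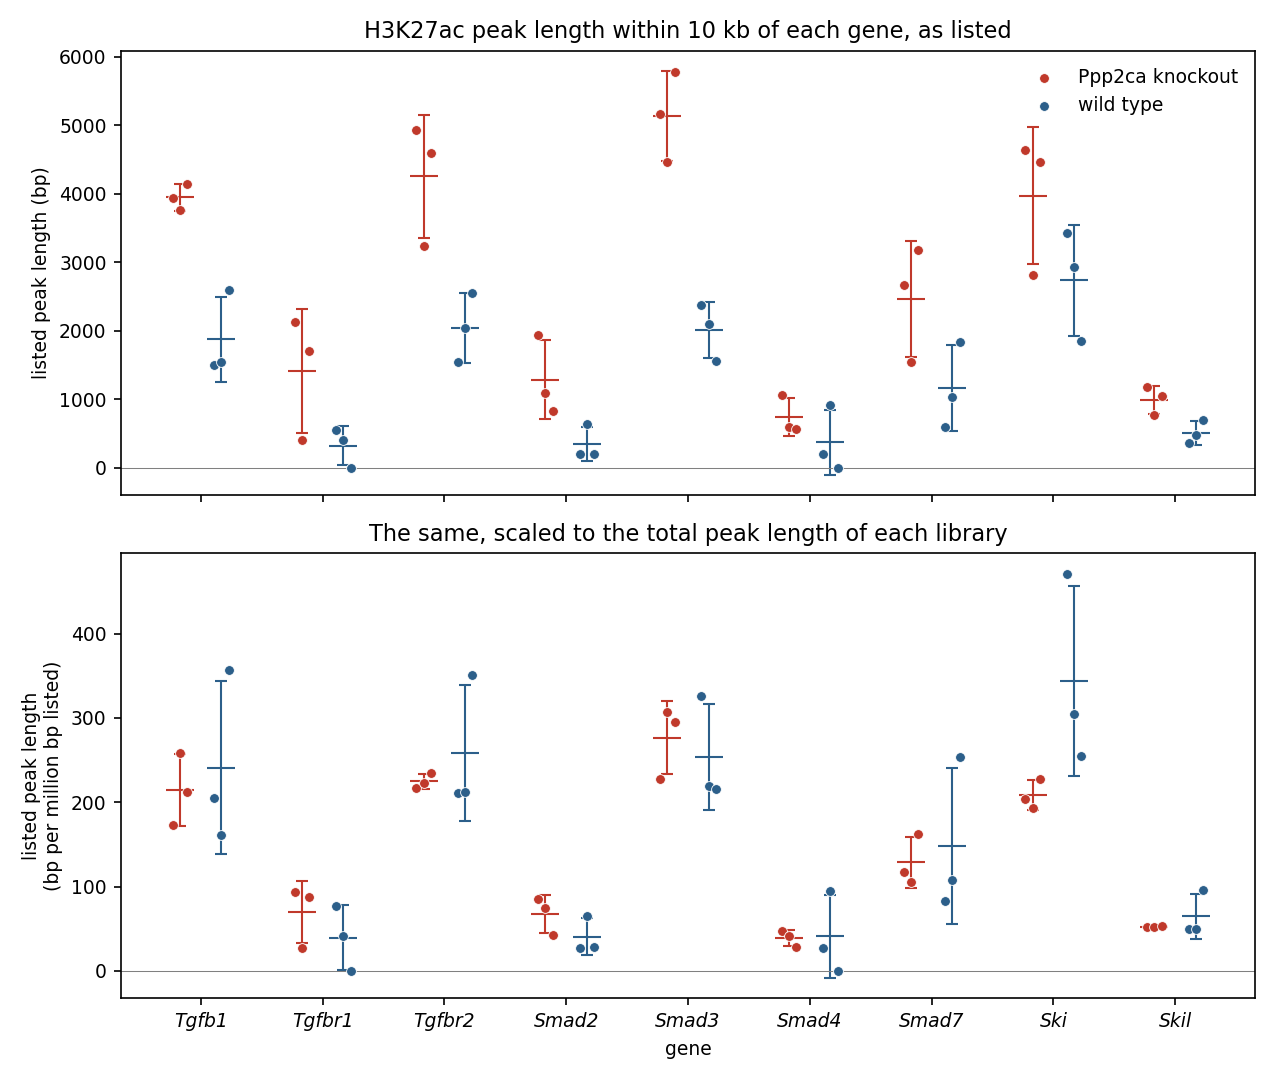
Covered bp (base pairs under H3K27ac peaks in the gene span plus 10 kb each side) in each library for the 9 genes, knockout left of wild type, and the same values per listed Mb; points are libraries, bars show mean and SD (n = 3 each). Knockout points lie above all wild-type points at Tgfb1, Tgfbr2, Smad2, Smad3 and Skil in covered bp, but at no gene per listed Mb, where Tgfb1, Tgfbr2, Smad4, Smad7, Ski and Skil have the lower knockout mean.

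Set against the length of the window, Tgfb1 was the most heavily marked of the 9 genes in both genotypes, with 10.4% ± 0.506 of its bases under peaks in the knockout against 4.93% ± 1.62 in the wild type (SD, n = 3 each). Its libraries did not overlap those of the next gene in either genotype. In the knockout the order went on with Smad7 (5.07%), Ski (4.49%), Tgfbr2 (3.95%) and Smad3 (3.91%), whose neighbours overlapped, and then, without overlap between Smad3 and Skil, with Skil (2.07%), Tgfbr1 (1.73%), Smad2 (1.42%) and Smad4 (0.834%). In the wild type it was Ski (3.09%), Smad7 (2.39%), Tgfbr2 (1.89%), Smad3 (1.53%), Skil (1.06%), Smad4 (0.416%), Tgfbr1 (0.39%) and Smad2 (0.379%), and each of these overlapped the next. Tgfbr1, Smad2 and Smad4 were the last 3 in both genotypes. The place of Tgfb1 in the wild type rested on a flank region at ends of B9d2 and Tmem91: with it left out, Tgfb1 had 7.48% ± 0.373 in the knockout, still above Ski and Smad7, against 2.97% ± 1.19 in the wild type, where it overlapped Ski and came second to it (SD, n = 3 each).

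Tgfb1, the ligand made in marrow by megakaryocytes and other cells, lies on chromosome 7 from 25687002 to 25705077 on the plus strand. Its window held 3938, 3755 and 4140 covered bp in knockout replicates 1 to 3, against 1493, 1545 and 2589 in the wild-type replicates. The knockout values were close together and all above the wild type in bp (knockout 3944.3 ± 193 against wild type 1875.7 ± 618, SD, n = 3 each; two-sided exact permutation p = 0.1), whereas per listed Mb the genotypes overlapped with a ratio of 0.889. Peaks numbered 4, 6 and 5 in the knockout against 5, 4 and 5 in the wild type, so it was their width and not their number that set the knockout apart. Most of the difference lay in 1 region over the first part of the gene (chr7:25687331-25689951), which held a peak in all 6 libraries. There the peaks covered 1928, 1883 and 2451 bp in the knockout against 544, 550 and 447 bp in the wild type, and the strongest summits rested on 33, 19 and 41 fragments in the knockout against 9, 12 and 11 in the wild type. The authors' q-value was 0.05 or less (q at most 0.05) in all 3 knockout libraries and in none of the wild-type libraries. The fold over background at the summit, which is the authors' deposited value throughout and serves only to describe a peak within its own list, was 3.31, 2.99 and 3.61 in the knockout against 3.11, 3.04 and 3.28 in the wild type.

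By the 1 kb rule for gene ends, Tgfb1 was marked in 3 of 3 knockout and in 0 of 3 wild-type libraries. It was the only knockout-only gene end among the 9, beside 8.1% of the 11084 genes marked at an end in any library, and no member was wild-type-only, beside 0.018%. The call rested on the exact width of the window: the knockout summits nearest the start lay 1639, 1080 and 525 bp inside the gene. With 500 bp or 2000 bp around the end the count of knockout-only members was 0. Without knockout replicate 2, or without wild-type replicate 3, it was 2. The share over all genes at these settings is not given here. The end of a neighbouring gene, B9d2, lies within 1 kb of the same region. A second region shared by all 6 libraries, at -6.18 kb from the start, lies at ends of B9d2 and Tmem91, so that it falls in the Tgfb1 window and is counted there but cannot be told to belong to Tgfb1. It covered 1177, 981 and 1127 bp in the knockout against 650, 647 and 932 bp in the wild type. With that region left out, chosen after seeing the data, the window held 2761, 2774 and 3013 bp in the knockout against 843, 898 and 1657 bp in the wild type, still without overlap (two-sided exact permutation p = 0.1), and the ratio per listed Mb turned to 1.06. With a further flank region inside B9d2 left out as well it was 1.29.

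Tgfbr2, the ligand-binding type II receptor (chromosome 9, 116087695 to 116175363, minus strand), had 4932, 3236 and 4594 covered bp in the knockout against 1535, 2033 and 2546 in the wild type. All knockout libraries were higher in bp (knockout 4254 ± 898 against wild type 2038 ± 506, SD, n = 3 each; two-sided exact permutation p = 0.1), and per listed Mb they overlapped the wild type with a ratio of 0.871. Peaks numbered 12, 9 and 10 in the knockout against 5, 7 and 6 in the wild type. Tgfbr2 and Smad3 were the 2 members with more peaks in every knockout library, beside 17.7% of genes with a peak. This count was 0 with every list cut to 21917 peaks, 1 with no flank, 4 with 50 kb and 4 without wild-type replicate 2. The 17.7% does not apply to those settings, and their share over all genes is not given here.

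At the Tgfbr2 start, next to the printed promoter, the peaks covered 261, 765 and 734 bp in the knockout libraries and 0, 262 and 282 bp in the wild-type libraries. The knockout peaks had q at most 0.05 in all 3 libraries and the wild-type peaks in none, while the summit folds were alike (3.57, 4.09 and 3.57 in the knockout against 3.67 and 3.76 in wild-type replicates 2 and 3). A region 14.5 kb from the start (chr9:116160114-116161524) covered 651, 443 and 378 bp in the knockout against 389, 598 and 668 bp in the wild type. Its percentile within each list, where 0 is the strongest peak, was 35.5, 44.3 and 45.1 in the knockout against 7.55, 5.91 and 16.3 in the wild type, although ranks in lists of unequal length show no change. It was the only one of the 12 regions shared by all 6 libraries with a lower knockout mean, and the libraries overlapped. The other shared regions of Tgfbr2 lay 29.6 kb inside the gene and in the far flank, 91.1 kb from the start, and overlapped between genotypes too.

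Tgfbr1, the type I receptor kinase (chromosome 4, 47353222 to 47414926, plus strand), was thinly marked. Covered bp came to 2130, 400 and 1708 in the knockout against 556, 400 and 0 in the wild type (knockout 1412.7 ± 902 against wild type 318.67 ± 287, SD, n = 3 each; two-sided exact permutation p = 0.3), so knockout replicate 2 lay within the wild-type range, and per listed Mb the ratio was 1.77 with overlap. A peak at the start was listed in knockout replicates 1 (836 bp) and 3 (1010 bp) and in wild-type replicate 1 (356 bp), with folds of 5.04 and 4.81 in the knockout against 3.93 in the wild type. The knockout peaks reached back over the whole printed promoter, whereas the wild-type peak lay inside the gene. Of the 10 regions in the Tgfbr1 window, 8 were found in 1 library each.

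**Figure D2:**
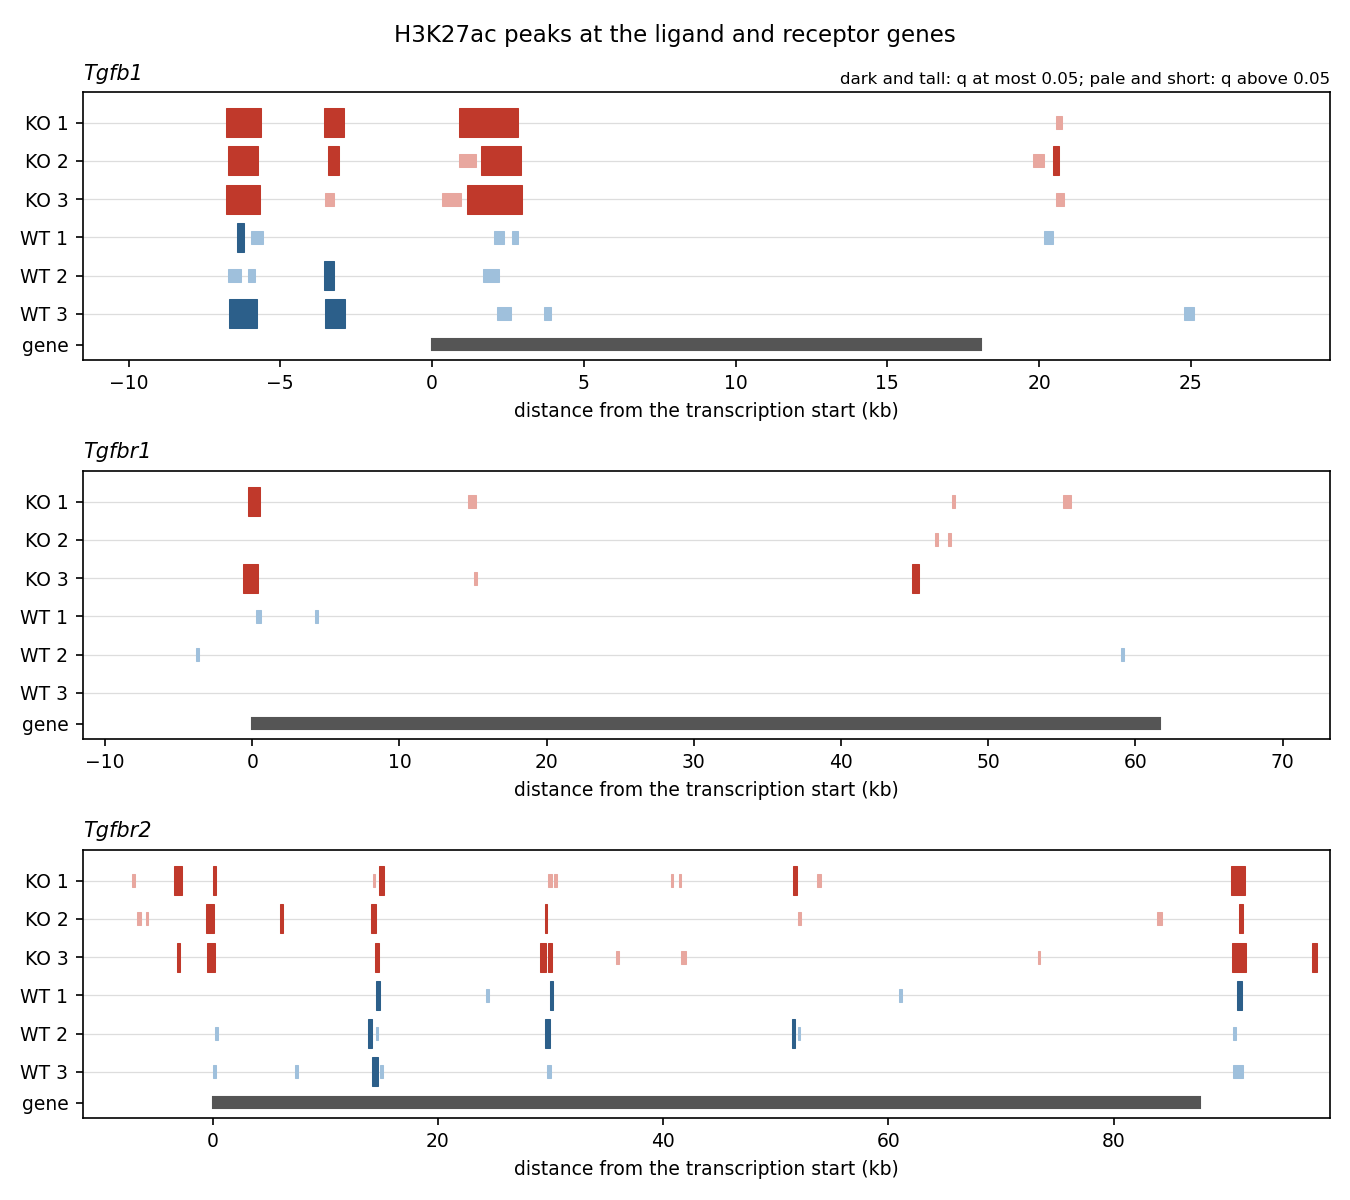
Position of every H3K27ac peak in the windows of Tgfb1, Tgfbr2 and Tgfbr1, with 1 row per library (knockout above wild type); the x axis is the distance from the transcription start in kb, the dark bar is the gene, and dark, tall boxes are peaks with q at most 0.05. Over the first part of Tgfb1 the knockout boxes cover more sequence than the wild-type boxes, which lie further inside the gene than 1 kb. The Tgfbr1 start has a peak in 2 knockout libraries and 1 wild-type library.

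Smad3 (chromosome 9, 63646766 to 63757994, minus strand), which binds DNA with Smad4, had more peaks than any other of the 9 genes on average in both genotypes. They numbered 12, 13 and 17 in the knockout against 8, 8 and 6 in the wild type. Covered bp was 5164, 4467 and 5775 in the knockout against 2372, 2100 and 1563 in the wild type (knockout 5135.3 ± 654 against wild type 2011.7 ± 412, SD, n = 3 each; two-sided exact permutation p = 0.1). Per listed Mb the ratio was 1.09 and the libraries overlapped, so Smad3, with Tgfbr1 and Smad2, was 1 of the 3 members whose knockout mean stayed higher after scaling.

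The region before the Smad3 start (chr9:63758255-63759495), just beyond the printed promoter, held a peak in all 6 libraries. It covered 1108, 832 and 874 bp in the knockout against 483, 260 and 200 bp in the wild type. The 3 knockout peaks passed a q-value of 0.05 and the wild-type peaks did not. Over the genome, inside and outside gene windows, 2.71% of 104190 regions had a peak in all 3 knockout libraries and none in the wild type. Of the 112 in the 9 windows, Smad3 held the only such region. That region (chr9:63726020-63726979) lies within the gene, 31.5 kb from the start. It covered 694, 605 and 575 bp, with folds of 3.52, 5.19 and 3.85, in knockout replicates 1 to 3, and its summits rested on 8, 10 and 9 fragments. Close beside it, wild-type replicate 2 had a separate peak of 244 bp (63727052 to 63727295) with q above 0.05. Further regions at 36.3 and 51.4 kb had q at most 0.05 in all 3 knockout libraries. In 1 wild-type library each, they held only peaks above that q-value, yet these covered more bp than in any knockout library. At 36.3 kb the peaks covered 318, 200 and 210 bp in the knockout against 0, 0 and 468 bp in the wild type. At 51.4 kb they covered 457, 216 and 290 bp in the knockout against 492, 0 and 0 bp in the wild type.

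Smad2, the other receptor-regulated SMAD (chromosome 18, 76241090 to 76311748), had 1941, 1088 and 828 covered bp in the knockout against 200, 630 and 201 in the wild type. The genotypes did not overlap in bp (knockout 1285.7 ± 582 against wild type 343.67 ± 248, SD, n = 3 each; two-sided exact permutation p = 0.1), and per listed Mb the ratio was 1.68 with overlap. At the low-coordinate end the peaks covered 1056, 642 and 628 bp in the knockout, against 0, 0 and 201 bp in the wild type. Strand is not given for Smad2, Smad4, Smad7 and Skil in the sources used here, so their ends are named by coordinate.

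Smad4, the shared partner of the receptor-regulated SMADs (chromosome 18, 73634790 to 73703791), was the least marked member in the knockout. It had 1061, 600 and 565 covered bp in the knockout against 200, 910 and 0 in the wild type (knockout 742 ± 277 against wild type 370 ± 478, SD, n = 3 each; two-sided exact permutation p = 0.3), with overlapping libraries and a ratio of 0.955 per listed Mb. Only knockout replicate 2 held a peak with q at most 0.05. At the high-coordinate end, peaks were listed in knockout replicates 1 and 3 and in no wild-type library, resting on 4 or 5 fragments each. With every list cut to 21917 peaks the sign of the difference at Smad4 turned.

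Smad7, the inhibitor that the pathway itself induces (chromosome 18, 75367365 to 75395935), had 2670, 1535 and 3181 covered bp in the knockout against 600, 1037 and 1841 in the wild type. Wild-type replicate 3 exceeded knockout replicate 2 (knockout 2462 ± 842 against wild type 1159.3 ± 629, SD, n = 3 each; two-sided exact permutation p = 0.2), and per listed Mb the ratio was 0.868. Smad7 and Skil were the 2 members with a gene-end peak in all 6 libraries, beside 33.5% of genes marked at an end in any library. The peak at the low-coordinate end of Smad7 covered 984, 417 and 815 bp in the knockout against 200, 278 and 513 bp in the wild type, and passed a q-value of 0.05 in 3 knockout and 0 wild-type libraries. A second shared region, 10.5 kb inside the gene, covered 647, 834 and 1090 bp in the knockout against 200, 311 and 422 bp in the wild type, without overlap. The strongest summit within its own list there belonged to wild-type replicate 2, at a fold of 5.77 and a percentile of 1.95.

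**Figure D3:**
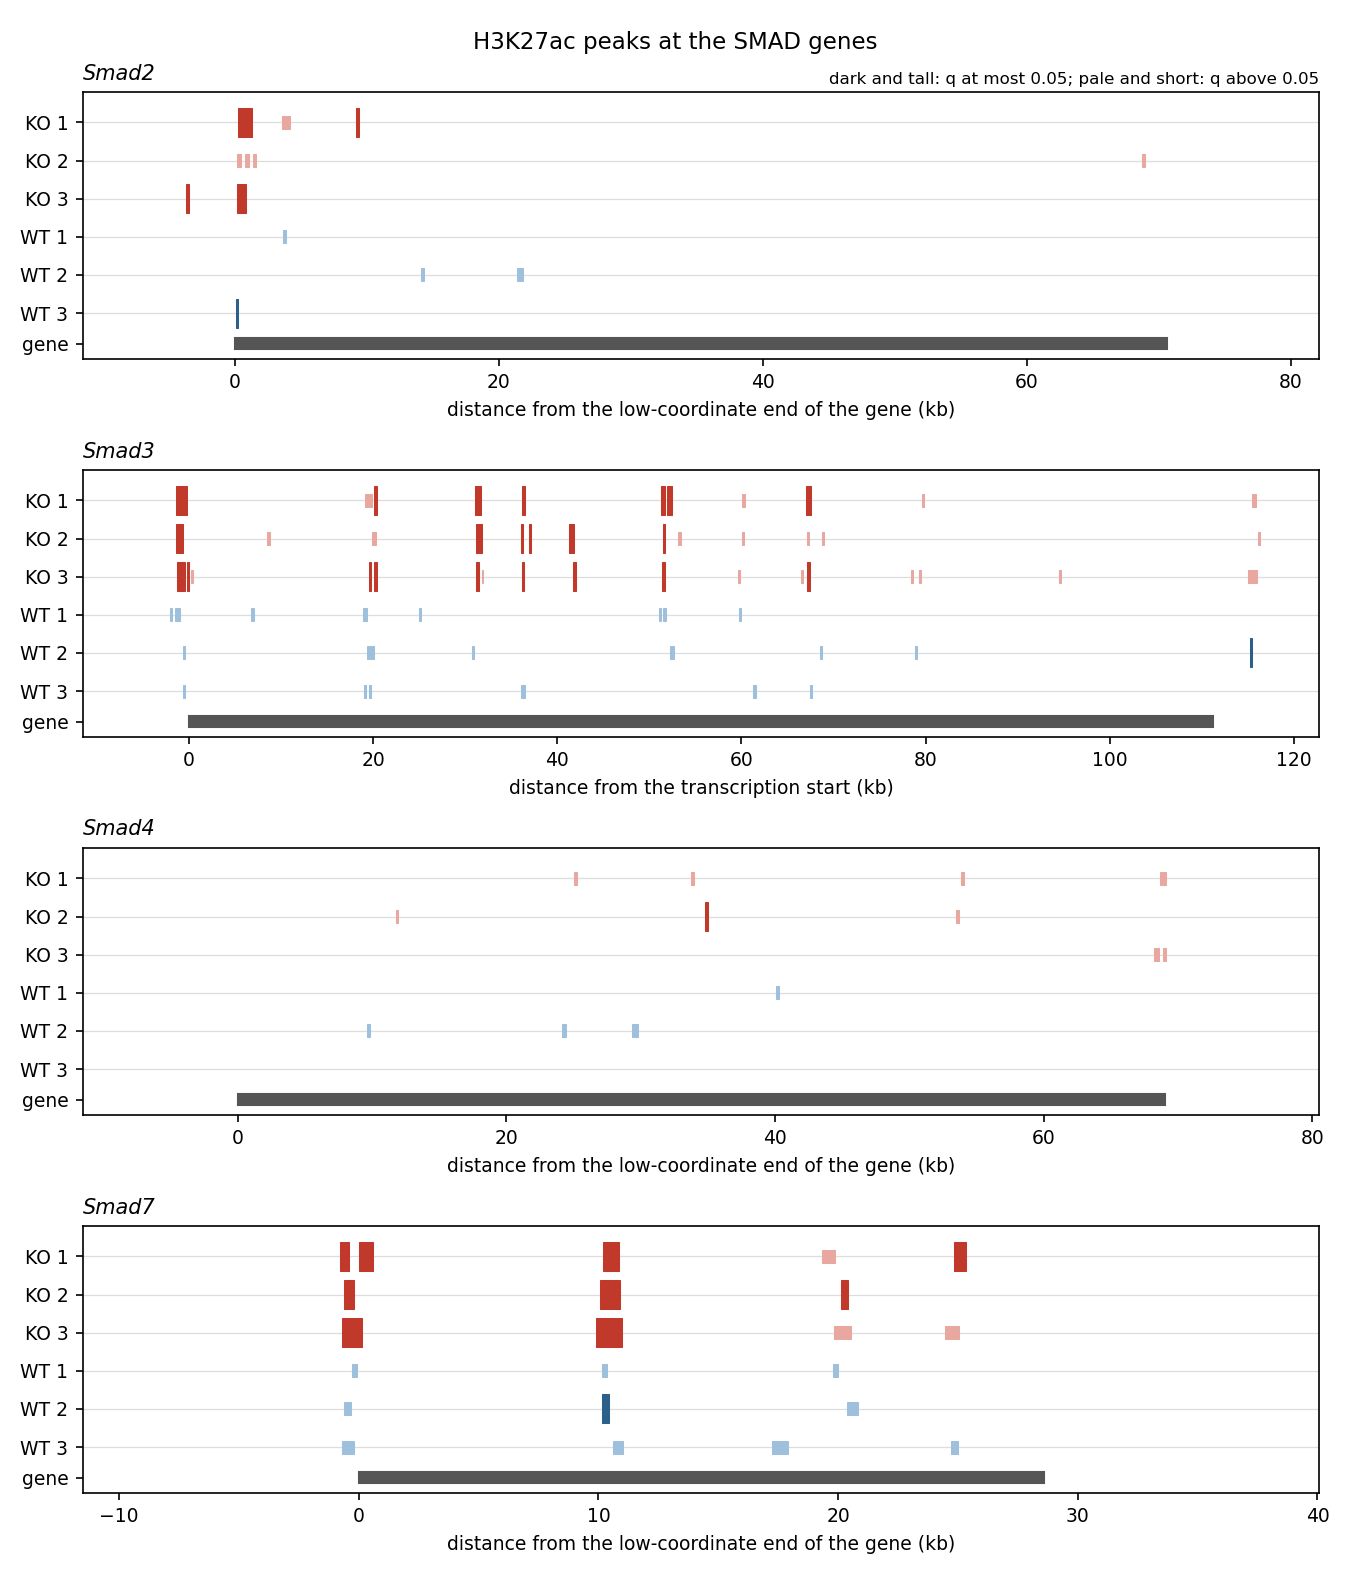
Position of every H3K27ac peak in the windows of Smad2, Smad3, Smad4 and Smad7, with 1 row per library (knockout above wild type); the x axis is the distance in kb from the transcription start of Smad3 or from the low-coordinate end of the others, the dark bar is the gene, and dark, tall boxes are peaks with q at most 0.05. Smad3 carries peaks along most of its length, with overlapping peaks of all 3 knockout libraries at 31.5 kb, and Smad4 carries few peaks in any library.

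Ski (chromosome 4, 155154075 to 155222535, minus strand) encodes a corepressor that binds SMAD complexes. It had the lowest ratio of knockout to wild-type means of the 9 genes, 1.45, with 4633, 2816 and 4461 covered bp in the knockout against 3430, 2927 and 1849 in the wild type (knockout 3970 ± 1000 against wild type 2735.3 ± 808, SD, n = 3 each; two-sided exact permutation p = 0.3). Scaling turned the direction: per listed Mb it had 203.9, 193.6 and 228.0 in the knockout against 471.3, 305.0 and 255.2 in the wild type, with no overlap and a ratio of 0.606 (exact permutation p = 0.1). The mark lay inside the gene and not at its start, where only knockout replicate 3 had a peak, of 273 bp. Regions 59.5 kb and 21.4 kb from the start were shared by all 6 libraries. At 21.4 kb the peaks covered 1086, 766 and 1087 bp in the knockout against 1005, 809 and 637 bp in the wild type, and at 59.5 kb they covered 924, 564 and 1121 bp in the knockout against 538, 480 and 781 bp in the wild type. Both regions overlapped between genotypes. The region at 21.4 kb held the highest fold among all peaks of the 9 genes, 6.25 in knockout replicate 1.

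Skil (SnoN), the related corepressor (chromosome 3, 31095058 to 31122923), had the opposite layout, with every peak close to its low-coordinate end. It had 1170, 763 and 1039 covered bp in the knockout against 358, 472 and 693 in the wild type, without overlap (knockout 990.67 ± 208 against wild type 507.67 ± 170, SD, n = 3 each; two-sided exact permutation p = 0.1), and per listed Mb the ratio was 0.81 with overlap. A region 0.81 kb outside that end (chr3:31093712-31094783) held a peak in all 6 libraries. It covered 901, 474 and 803 bp in the knockout against 358, 272 and 373 bp in the wild type, and passed a q-value of 0.05 in 3 knockout libraries and in wild-type replicate 3.

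**Figure D4:**
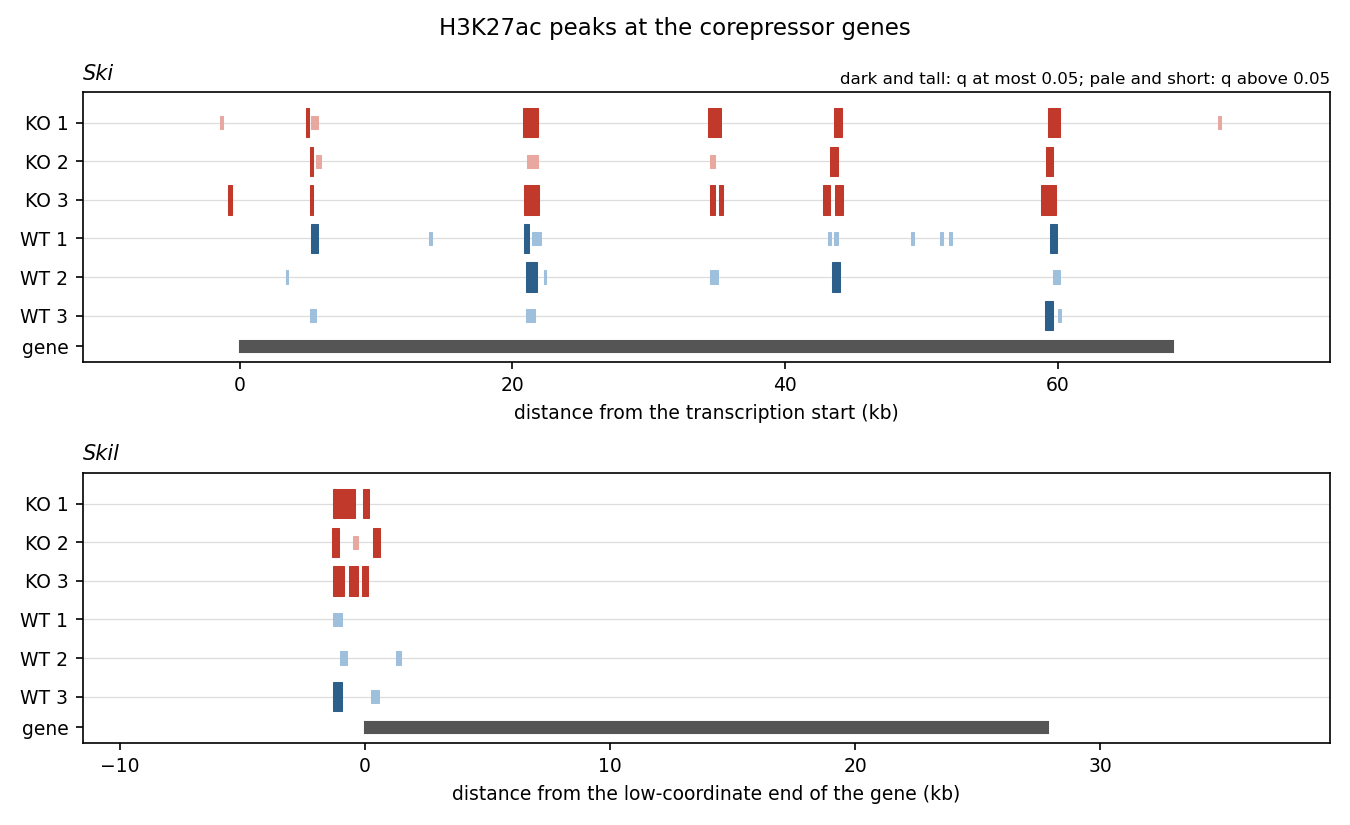
Position of every H3K27ac peak in the windows of Ski and Skil, with 1 row per library (knockout above wild type); the x axis is the distance in kb from the Ski transcription start or from the low-coordinate end of Skil, the dark bar is the gene, and dark, tall boxes are peaks with q at most 0.05. Ski peaks lie along the gene in both genotypes, with 1 library marked within 1 kb of its start, and Skil peaks gather at 1 end in all 6 libraries.

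Gene ends of the 9 members were marked at 8, 6 and 9 genes in the knockout libraries and at 3, 4 and 5 genes in the wild-type libraries. Over all protein-coding genes the share marked was 44.3%, 39.6% and 42.1% in the knockout against 26.3%, 29.9% and 26.4% in the wild type. Peaks within 1 kb of a gene end numbered 10, 8 and 14 in the knockout against 3, 4 and 6 in the wild type. Peaks in the gene bodies numbered 35, 32 and 32 in the knockout against 27, 27 and 18 in the wild type, and those in the flanks 9, 9 and 8 in the knockout against 6, 6 and 4 in the wild type. Unscaled, the knockout numbers were above the wild type at each of the 3 places, in lists with 1.62 times as many peaks on average. The median summit of the member peaks rested on 8, 7 and 9 fragments in the knockout against 6, 6 and 6 in the wild type. Within each list the median fold of the member peaks was 3.31, 3.41 and 3.6 in the knockout libraries, and 3.33, 3.37 and 3.54 in the wild-type libraries.

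The genotypes stood furthest apart in peaks with q at most 0.05, a measure that depends on depth. These were 29, 24 and 35 of the member peaks in the knockout (53.7%, 49.0% and 64.8%) and 7, 8 and 6 in the wild type (19.4%, 21.6% and 21.4%). The whole lists had 43.9%, 47.4% and 66.6% in the knockout against 16.6%, 15.7% and 16.7% in the wild type. With these peaks alone, covered bp was higher in every knockout library at 5 members (Tgfb1, Tgfbr2, Smad3, Smad7 and Skil), beside 69.2% of the 13330 genes with such a peak. Tgfbr2, Smad3 and Smad7 then became knockout-only at a gene end, 3 of the 9, beside 29.0% of the 9365 genes with such a peak at an end, while Tgfb1 dropped out because 1 knockout library passed.

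The 112 merged regions in the 9 windows were mostly seen in few libraries. Shares over the genome also count regions outside gene windows, so the 2 sets differ in place. Among the 112, a peak in all 6 libraries was found in 28.6% at gene ends, 7.5% in bodies and 11.1% in flanks. A peak in 1 library alone underlay 70 of them (62.5%), 42 from the knockout and 28 from the wild type, against 73.5% of regions over the genome. A peak in all 6 libraries was found in 12 (10.7%), beside 5.27% over the genome: 3 in the window of Tgfbr2, 2 each in those of Tgfb1, Smad3, Smad7 and Ski, and 1 in that of Skil. In unscaled covered bp, 5 of the 12 were higher in every knockout library, beside 59.4% of such regions over the genome. These 5 were the 2 in the Tgfb1 window, of which one lies at ends of B9d2 and Tmem91, the one before the Smad3 start, the one inside Smad7 and the one at Skil. The threshold of q at most 0.05 was met in all 3 knockout libraries at 9 of the 12 and in all 3 wild-type libraries at 1, the Tgfbr2 region 14.5 kb from the start. The share of such regions over the genome that met it is not given here. The whole lists differed in the same direction at this threshold, so these counts are not a trait of the 12 regions.

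**Figure D5:**
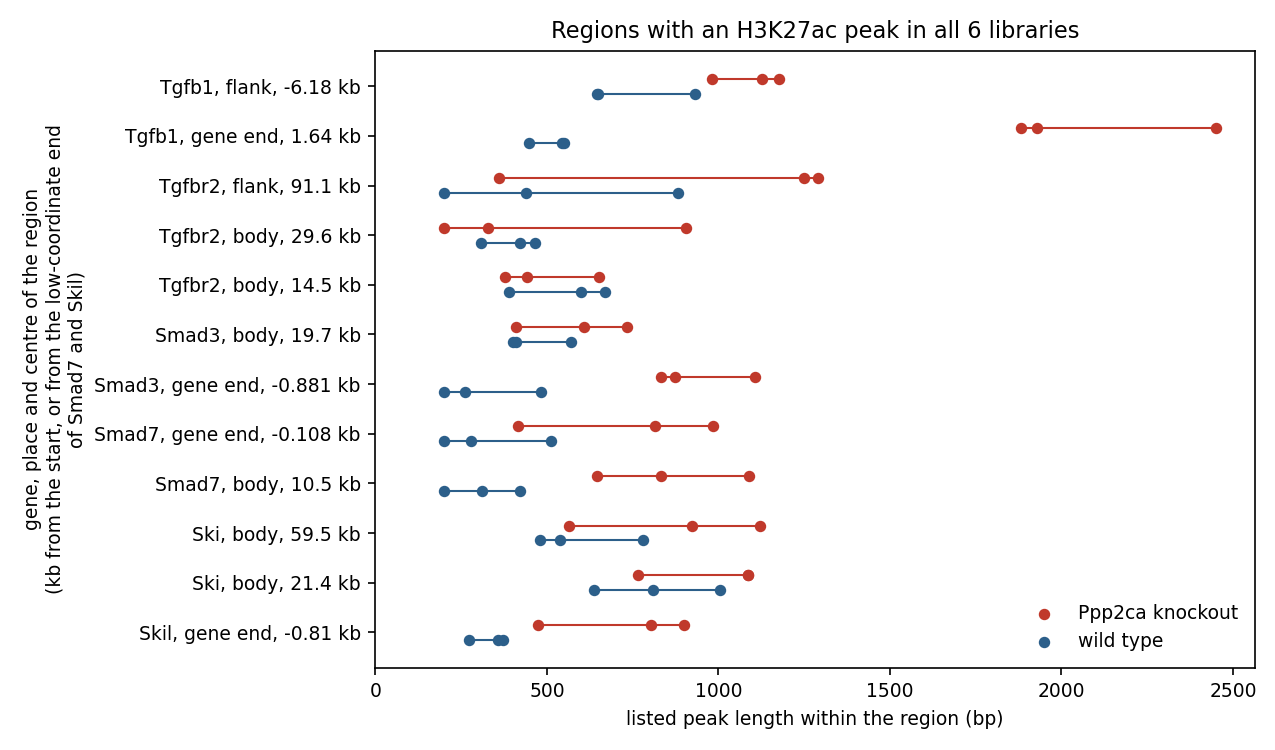
Covered bp in each library for the 12 regions with a peak in all 6 libraries, each row labelled with gene, place and distance in kb; the x axis is covered bp, points are libraries, lines join each genotype's range, and the knockout is drawn above the wild type. In 5 regions every knockout point lies above every wild-type point, and at the Tgfbr2 region 14.5 kb from the start the knockout mean is the lower.

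The same measures were taken for 45 other genes of the pathway, of which 39 had a peak. Covered bp was higher in every knockout library at 24 of the 39 and lower in every one at 0, beside 53.7% and 0.476% of the 17006 genes with a peak. Per listed Mb it was higher at 11 of the 39, beside 13.2%. The median ratio of knockout to wild-type means was 3.07 over the 35 genes with wild-type peaks, beside 2.36 over the 15128 such genes in all. By role, with genes without a peak included, 8 of 9 SMADs and partners and 8 of 9 regulators of turnover and dephosphorylation were higher in bp. So were 3 of 9 receptors, 2 of 10 genes for ligands and their release and 3 of 8 target genes. Counted the same way, with genes without a peak included, 9137 of all 21883 protein-coding genes were higher. Gene ends were marked at 21, 15 and 19 of the 45 in the knockout and at 11, 6 and 9 in the wild type. Over all protein-coding genes the share marked was 44.3%, 39.6% and 42.1% in the knockout against 26.3%, 29.9% and 26.4% in the wild type.

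Bmpr2, the type II receptor for bone morphogenetic proteins, Tgif2, a SMAD-binding corepressor, and Usp15, a deubiquitinase that acts on the type I receptor and SMADs, were the 3 knockout-only gene ends among the 22 of these genes marked at an end in any library, beside 8.1%, and none was wild-type-only, beside 0.018%. Without knockout replicate 2 the knockout-only gene ends numbered 7, but the 8.1% does not apply there and the matching share over all genes is not given here. Bmpr2 had 1307, 663 and 668 covered bp in the knockout and no peak in any wild-type library. Tgif2, whose end lies beside that of LOC115486128, had 3515, 2546 and 3952 bp in the knockout against 776, 1414 and 411 bp in the wild type. Usp15 had 3183, 1056 and 2331 bp in the knockout against 600, 922 and 616 bp in the wild type. All 3 were thus higher in every knockout library in bp, and Usp15 was not when scaled to listed length.

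Among the others, the ubiquitin ligase gene Nedd4l had the largest difference of means, with 5112 ± 1200 bp in the knockout against 2035 ± 427 bp in the wild type (SD, n = 3 each), none of it at a gene end. Trim33, a ubiquitin ligase that acts on Smad4, had 2992 ± 887 bp in the knockout against 971 ± 195 bp in the wild type (SD, n = 3 each). Rnf111, which targets Ski and Skil for degradation, had 3391 ± 531 bp in the knockout against 1731 ± 852 bp in the wild type (SD, n = 3 each). None of these 3 was higher in every knockout library after scaling. Ppp2r2a, a regulatory subunit of PP2A itself, had 2444 ± 742 bp in the knockout against 814.7 ± 219 bp in the wild type, and Ppm1a, a phosphatase that acts on receptor-regulated SMADs, had 2053 ± 556 bp in the knockout against 450.3 ± 140 bp in the wild type (SD, n = 3 each). Strap, which stabilises the Smad7 and receptor complex, had 1945 ± 31.6 bp in the knockout against 376.3 ± 305 bp in the wild type, and Cdkn1a, a cell cycle inhibitor that the pathway induces, had 1704 ± 299 bp in the knockout against 320.0 ± 106 bp in the wild type (SD, n = 3 each). Ppm1a, Strap and Cdkn1a remained higher in every knockout library per listed Mb, and Ppp2r2a did not. The co-receptor gene Eng (beside Fpgs), the protease gene Furin (beside Fes), whose product processes the ligand, and Smad1, which relays bone morphogenetic protein signals, were also higher in every knockout library in bp and not per listed Mb. Each of these comparisons has a two-sided exact permutation p of 0.1. The genes were named because their libraries did not overlap, which fixes that p in advance, so it adds no support. Thbs1, Bmpr1a, Smurf1, Cdkn1c, Id2 and Id3 had no peak in any library.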

How the data were processed

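H3K27ac CUT&RUN peak lists of 3 Ppp2ca-deficient and 3 wild-type HSC libraries were used as deposited, 1 narrowPeak list per library. The submitters' processing notes list Trimmomatic, BWA, deepTools, MACS2, HOMER and ChIPseeker, and the build GRCm38/mm10. Versions, parameters and any control library were not given in the sources used here. Each deposited peak has, for its summit, a ratio (fold enrichment), a −log10 p-value, a −log10 q-value and a score. The deposited score was 10 times the −log10 p-value, cut to a whole number, in at least 99.89% of the peaks of each list. The lowest −log10 p-value was 2.005 or 2.006 in every list. All of them vary with library depth and served only to describe, rank or filter peaks, so counts at a q-value of 0.05 carry that dependence. Total reads are not in the lists. Fold and p-value were solved for the pileup and the background of each peak, and whole pileups came out for at least 99.99% of peaks with −log10 p-value under 15 (tolerance 0.002).

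Gene spans came from the RefSeq table of GRCm38.p6. A peak counted from 1 bp of overlap with the span plus 10 kb each side, and a gene was marked at an end where a peak lay within 1 kb of either end. Regions were peaks of all 6 lists merged by overlap. Covered bp was compared by a two-sided exact permutation test over 20 assignments of the libraries (smallest p 0.1) and adjusted by Benjamini-Hochberg over all genes with a peak. The procedure was tested on simulated data. Tools were Python 3.11.15, numpy 2.4.6, pandas 2.3.3, scipy 1.17.1 and matplotlib 3.10.9.

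The 9 genes, the 45 other pathway genes and the marker lists were chosen with earlier results of these data known. All 9 genes were described in full. Of the other pathway genes, those exclusive to 1 genotype at a gene end were named, with up to 10 others of largest difference among those whose libraries did not overlap. Replicate numbers were checked as pairs and did not pair the libraries. Alternatives were a q-value of at most 0.05, lists cut to 21917 peaks, a summit rule, other flanks and end windows, a replicate block, leaving out each library and, chosen after seeing the data, scaling to total listed length and leaving out flank regions of Tgfb1 at a neighbouring gene. Groups of 3 libraries were not searched for outlying values.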

Additional observations from a re-analysis of the deposited data

How the results depend on the processing

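Every knockout-minus-wild-type difference in covered bp kept its sign at the 9 genes under the q-value filter, the summit rule, flanks of 0 and 50 kb and leaving out any library. With lists cut to 21917 peaks Smad4 turned to -108 bp. Scaled to listed length, chosen after seeing the data, the differences at Tgfb1 (-26.78), Tgfbr2 (-33.26), Smad4 (-1.827), Smad7 (-19.65), Ski (-135.3) and Skil (-12.32 bp per listed Mb) turned, Tgfb1 only while a flank region at ends of B9d2 and Tmem91 was kept. Scaling left 0 genes higher and 1 lower in every knockout library, and 11 pathway genes higher.

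Counts moved more. Genes higher in every knockout library, 5 as reported, numbered 3 with equal lists, 2 with no flank and 8 with 50 kb, and 5 to 8 with a library left out. Lower genes stayed at 0 with a library left out. Genes with more peaks, 2 as reported, numbered 4 with the q-value filter, 0 with equal lists, 1 with no flank, 4 with 50 kb, and 2 to 4 with a library left out. Knockout-only gene ends, 1 as reported, numbered 3 with the q-value filter, 0 with equal lists, the summit rule, or end windows of 500 or 2000 bp, and 1 to 2 with a library left out. Wild-type-only ends stayed at 0 with a library left out. Pathway genes higher in bp, 24 as reported, numbered 21 with the q-value filter and 17 with equal lists. They numbered 14 with no flank, 33 with 50 kb and 24 to 27 with a library left out. Pathway knockout-only ends, 3 as reported, numbered 7 with the q-value filter and 3 to 7 with a library left out. They numbered 2 with equal lists, the summit rule, or end windows of 500 or 2000 bp. The cause of these moves was not tested. Knockout-only ends made up 29.0% of genes marked at an end with the q-value filter, beside 8.1% as reported. Genes higher in every knockout library made up 69.2% of genes with a peak under that filter, beside 53.7% as reported. No share over all genes is given for the other counts and settings here. A move in the listed genes was therefore not told apart from a move in all genes.

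With the replicate number as a replicate block, 6 members were higher within every numbered pair. Same-numbered libraries did not deviate together (r of -0.0291, -0.00371 and 0.000709 over genes), so the numbers were not taken as pairs, and 3 pairs cannot give a sign-flip p below 0.25. Median summits of 5 to 9 fragments limit all of these values.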
